A study of Mus musculus with 8 samples.

Results

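Late G1 was compared with early G1 in male mouse induced pluripotent stem cells, which are reprogrammed somatic cells that behave much like embryonic stem cells (the sample labels call them ESC). The comparison used 4 of the 8 libraries of a series that followed such cells out of mitosis: 2 libraries of cells collected 1 h after release from a mitotic block (early G1) and 2 of cells collected 3 h after it (late G1). The libraries were chosen by their labels alone, and every gene in the count table entered. The other 4 libraries, 2 of asynchronous and 2 of mitotic cells, entered an alternative fit, and their levels are given beside the G1 values. All cultures had been kept on irradiated feeders, in medium containing 15% serum, LIF at 1000 U/ml, and inhibitors of MEK (1 µM) and GSK3 (3 µM), a combination that holds cells in the naive pluripotent state. Early and late G1 cells had both been held for 6 h with 200 ng/ml nocodazole, which blocks microtubule growth, were shaken off gelatin-coated plates seeded the day before, washed and plated on gelatin again. The 2 stages were set by time after washout. DNA staining of aliquots, which the labels mention, was not used here. The labels give 2 independent clones as biological replicates but not which clone is which number, so p-values measured the spread between these samples.

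At the exit from mitosis the anaphase-promoting complex, a ubiquitin ligase, marks cyclins and mitotic kinases for destruction while transcription resumes on decondensing chromosomes. Genes of G2 and M phase are shut in G1 by the DREAM complex, which binds CHR elements of their promoters, whereas CCAAT boxes there are bound by the activator NF-Y. E2F factors then switch on the genes of DNA replication before S phase. Mouse pluripotent stem cells pass through G1 quickly, and many cell types activate the tumour suppressor p53 after a long arrest in mitosis.

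The 4 libraries held between 21067481 and 25615244 counts, and 3 counts were worth 0.117 to 0.143 CPM (counts per 1000000 counts, scaled between libraries by TMM, the level given throughout). Replicates were close: the biological coefficient of variation was 0.0506 in early G1 and 0.0417 in late G1. They still differed by more than sampling noise, with a mean chi-square per gene of 3.99 and 3.01. The first principal component of the 4 libraries held 48.7% of the variance, with early G1 at -21.5 and -18.2 and late G1 at 17.1 and 22.6. The pluripotency markers Pou5f1, Sox2, Nanog, Esrrb, Zfp42, Klf4, Sall4 and Dppa4 were present in all 4 libraries, in the range of 85.5 CPM for Dppa4 to 1968 CPM for Pou5f1.

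Of 17696 genes with enough counts, 1493 (8.44%) were called between late and early G1 at an adjusted p under 0.05 (edgeR quasi-likelihood test, two-sided, Benjamini-Hochberg). Of these, 619 genes (3.5% of those tested) were higher and 874 (4.94%) were lower in late G1. Most changes were small. The median call was 1.25-fold higher or 1.28-fold lower, 125 and 163 genes changed by at least 1.5-fold in the 2 directions, and 37 and 50 by at least 2-fold. The calls rest on the narrow spread of the 4 G1 libraries. A fit of all 8 libraries, in which the common coefficient of variation was 0.172 and not 0.0465, called 0 of 19101 genes (724 had an unadjusted p under 0.05, and the smallest adjusted p was 0.0839). In that fit all 1493 genes kept their sign and 491 had an unadjusted p under 0.05. DESeq2 on the 4 libraries called 3.4% of these genes, 229 higher (1.29%) and 372 lower (2.1%), and 599 of these 601 were among the 1493. Without late G1 replicate 2 the counts were 292 and 437, and without late G1 replicate 1 they were 373 and 680.

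**Figure D1:**
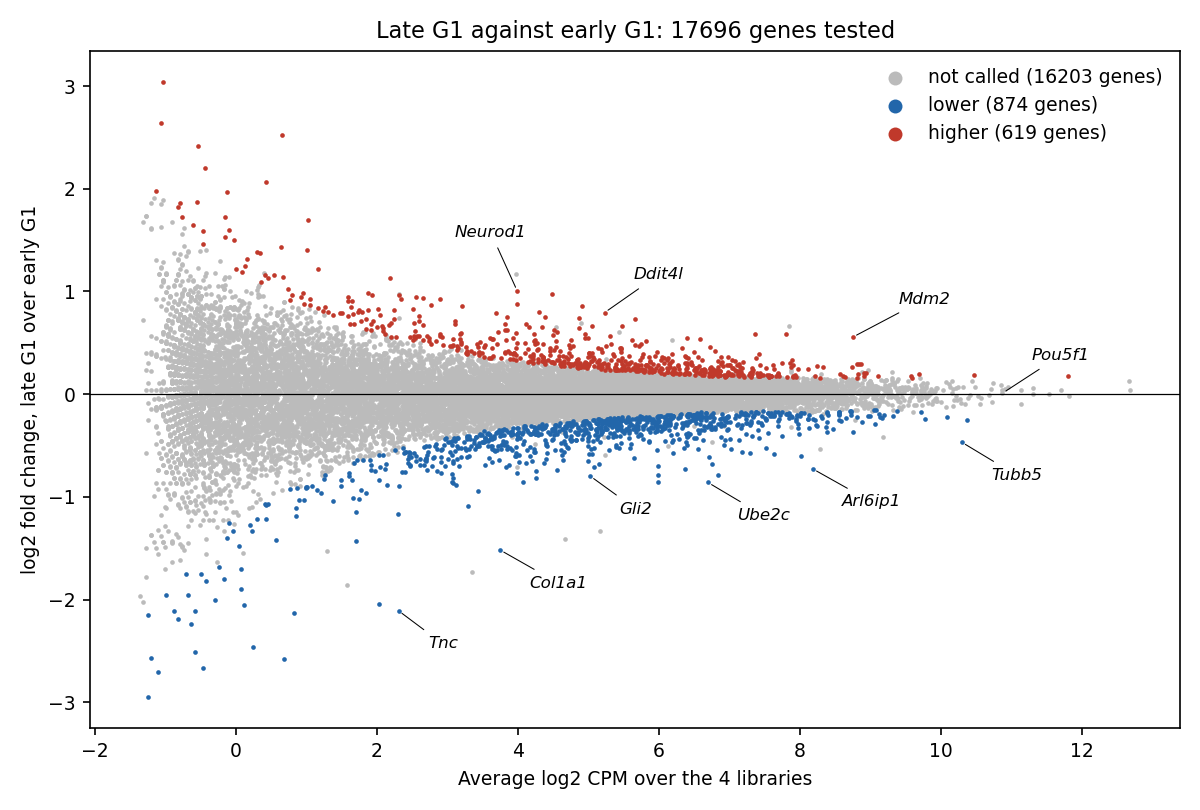
Log2 fold change of late over early G1 (y axis) against the average log2 CPM of the 4 libraries (x axis) for the 17696 tested genes. Red points are the 619 genes called higher and blue points the 874 called lower. Called changes narrow towards high levels, and Pou5f1 lies on the zero line.

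The 20 largest rises ranged from Pou4f3, at 2.95 and 2.77 CPM in early G1, to Ripk4, at 38.3 and 38.4 CPM. The rule took called protein-coding and lincRNA genes with a mean log2 CPM over the libraries of 2 or more, whose stages did not overlap. Clone names and pseudogenes were left out. By this rule the 20 largest rises were Pou4f3, Neurod1, Nectin4, Plekhg6, Mesp2, Atf3, Cxcl10, Nkx2-9, Scn3b, Wscd1, Tnfrsf1a, Ftx, Hyal1, Ddit4l, Hic1, Fosl1, Hoxc13, Hist1h2bc, Zfp750 and Ripk4. Of the 20, 18 were also called by DESeq2 (Wscd1 and Hic1 were not, adjusted p = 0.06 and 0.0946). Without late G1 replicate 2, Wscd1, Hic1 and Ftx lost their calls (edgeR adjusted p = 0.057, 0.0965 and 0.0556), and Hic1 also without early G1 replicate 2 (0.0581). Of these 20 genes 12 are shorter than 10 kb, and none is longer than 100 kb.

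Neurod1 (ENSMUSG00000034701, chromosome 2, 79452521 to 79456751, GRCm38), a proneural basic helix-loop-helix factor gene, stood at 11.4 and 9.94 CPM at 1 h and 20.9 and 21.8 CPM at 3 h. It rose 2.01-fold (log2 1.00, SE 0.106, adjusted p = 3.44e-08, n = 2 libraries per stage). Pou4f3, a POU factor gene of hair cells and sensory neurons, rose from 2.95 and 2.77 to 6.39 and 6.11 CPM, and Nkx2-9, a homeobox gene of the ventral neural tube, from 7.23 and 6.00 to 12.9 and 10.9 CPM. For each of these 3 genes both late G1 libraries lay above both early G1 libraries, which the rule for the largest rises required. Mesp2, a factor of somite segmentation, rose from 3.8 and 3.19 to 5.93 and 7.29 CPM. Hoxc13, a homeobox gene of hair follicles, rose from 12 and 9.66 to 19.1 and 17.2 CPM. A fixed list of lineage genes held 4 calls. Of 32 tested markers of germ layers and extraembryonic tissue, 3 (9.4%) were called higher and 1 (3.1%) lower. Over all tested genes the shares were 3.5% and 4.94%. Without late G1 replicate 1 edgeR called 0 of them. DESeq2 gave an adjusted p for 16 of the 32, which include 1 of the 4 called genes, and called 0 of those 16.

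Other genes of the 20 encode cell surface, epithelial and secreted proteins. Nectin4 (ENSMUSG00000006411, chromosome 1, 171370099 to 171388598), a cell adhesion molecule of epithelia, stood at 15.7 and 14.5 CPM at 1 h and 29.6 and 29.8 CPM at 3 h, a 1.97-fold rise (log2 0.98, SE 0.0926, adjusted p = 3.21e-09). Scn3b (ENSMUSG00000049281, chromosome 9, 40269217 to 40291618), an auxiliary subunit of sodium channels, rose 1.81-fold from 20.8 and 22 to 39.2 and 38.3 CPM (adjusted p = 6.01e-09). Ripk4, a kinase, and Zfp750, a zinc finger factor, both of epidermal differentiation, rose from 38.3 and 38.4 to 64.5 and 62.7 CPM and from 21.5 and 22.1 to 33.7 and 39.4 CPM. The stages did not overlap for any of the 4, as the rule required. Hyal1, a hyaluronidase gene, rose from 13.4 and 15.3 to 25 and 25 CPM, Tnfrsf1a, a receptor for tumour necrosis factor, from 3.99 and 4.17 to 7.45 and 7.05 CPM, and Cxcl10, a chemokine gene, from 4.8 and 4.83 to 8.74 and 8.81 CPM. Plekhg6 lies beside Tnfrsf1a on chromosome 6, on the opposite strand with the 3′ ends adjacent, and stood at 4.47 and 4.17 CPM in early and 8.65 and 7.81 CPM in late G1. Beside the other states, 16 of the 20 genes had a mitotic mean below their early G1 mean and 17 an asynchronous mean below their late G1 mean.

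**Figure D2:**
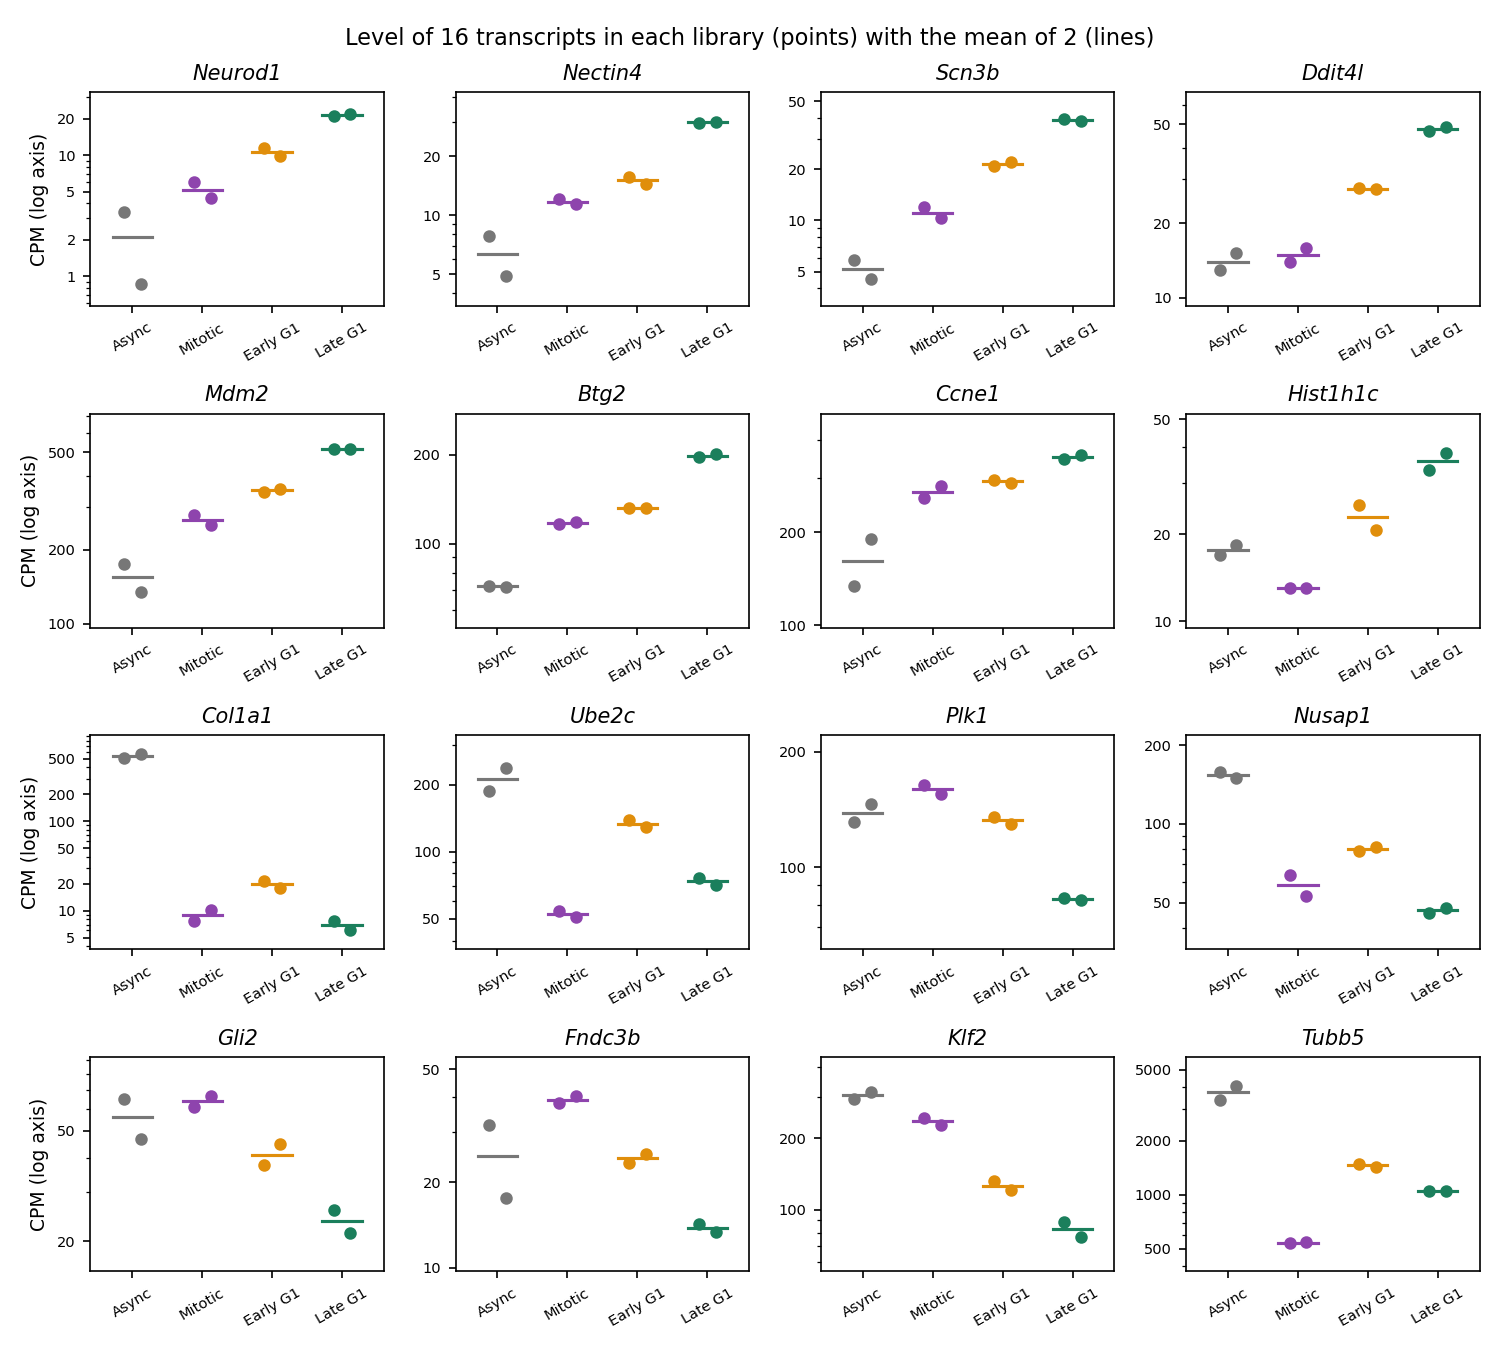
Level in CPM (log axis) of 16 named transcripts in each library (points) of asynchronous, mitotic, early G1 and late G1 cells, with the mean of the 2 libraries as a line. The first 8 rose and the last 8 fell between early and late G1. The early and late G1 points overlap for none of them, which the rule required of the largest rises and falls.

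The largest falls included extracellular matrix genes, mitotic genes and very long genes. By the same rule the 20 were Tnc, Lox, Col1a1, Col5a2, Fbln2, Loxl2, Apbb2, Chst11, Ube2c, Fhod3, Cdc25b, Rps7, Glis3, Fndc3b, Gli2, H2afx, Nusap1, Sfxn3, Ndufa4l2 and Zfp407. DESeq2 called 18 of them (Lox and Glis3 had adjusted p = 0.0559 and 0.0652). Chst11 lost its edgeR call without late G1 replicate 1 (adjusted p = 0.0711) and Glis3 without late G1 replicate 2 (0.071).

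Matrix genes made up the 6 largest falls and were at low levels in G1. Tnc (ENSMUSG00000028364, chromosome 4, 63959785 to 64047015), which encodes the matrix glycoprotein tenascin C, stood at 8.08 and 7.48 CPM at 1 h and 2.16 and 1.42 CPM at 3 h, 4.32-fold lower (log2 -2.11, SE 0.197, adjusted p = 2.71e-09). Col1a1 (ENSMUSG00000001506, chromosome 11, 94936224 to 94953042), the main chain of fibrillar collagen I, stood at 21.6 and 17.8 CPM and then 7.68 and 6.01 CPM, 2.86-fold lower (log2 -1.52, SE 0.127, adjusted p = 4.54e-10). Neither gene's stages overlapped, as the rule for the largest falls required. Both were far higher in the asynchronous libraries, at 95.7 and 81.1 CPM for Tnc and 513 and 559 CPM for Col1a1, and low in the mitotic ones, at 0.68 and 0.914 and 7.65 and 10.2 CPM. Col5a2, Fbln2, Loxl2 and Lox, genes for a collagen chain, a fibulin and enzymes that crosslink collagen, had log2 changes of -1.17, -0.95, -0.89 and -2.05.

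Several of these matrix genes belong to the list of feeder fibroblast markers, most of which had a negative change. Of 26 markers, 21 had enough counts, and 19 of these had a negative change. Of the 21, 8 (38.1%) were called lower and 1 (4.76%), Pdgfra, higher, against 4.94% and 3.5% of all tested genes. The count higher was 0 without early G1 replicate 1 or late G1 replicate 1. Their median log2 change was -0.95, against 0.00 over all tested genes. Postn, a matrix gene of fibroblasts, stood at 2.66 and 2.42 CPM in early and 0.46 and 0.379 CPM in late G1. The summed level of the list without Vim lay between 146.7 and 155.9 CPM at 1 h and between 84.0 and 101.5 CPM at 3 h. It was 97.6 and 105.2 CPM in mitotic and 1919 and 1898 CPM in asynchronous libraries. Vim, also a member, did not fall, at 223 and 218 CPM at 1 h and 238 and 235 CPM at 3 h. With Vim the sum was 379 and 365 CPM at 1 h and 339 and 319 CPM at 3 h, a smaller fall. Dcn and Lum, defining fibroblast markers, were at no more than 0.285 CPM in the G1 libraries, and were low in the asynchronous ones too, at 2.77 and 3.17 CPM for Dcn and 0.401 and 0.102 CPM for Lum. Thy1, a surface marker of fibroblasts, stood at 8.65 and 9.08 CPM at 1 h, 7.87 and 8.47 CPM at 3 h and 48.9 and 74.8 CPM in asynchronous libraries. Of the 874 genes lower in late G1, 36 (4.12%) had an asynchronous mean at least 8 times the mitotic one, against 145 of 17696 tested (0.819%) and 2 of 619 higher genes (0.323%). Of the 20 largest falls, 8 were such genes. The part of feeder RNA in these falls was not tested, and fewer cells of a type cannot be told apart from less RNA per cell in bulk samples. DESeq2 called 4 feeder markers lower and 0 higher among the 10 for which it gave an adjusted p.

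Many transcripts of G2 and M phase fell. Of 56 listed genes, all tested, 28 were called lower and 0 higher, against 4.94% and 3.5% of all tested genes. The median log2 change was -0.18, and both late G1 libraries lay below both early G1 libraries for 47 of the 56, against 26.1% of all tested genes. DESeq2 called 22 lower. Leaving out 1 library gave between 19 and 31 lower and at most 1 higher. The summed level of the list was 9656 and 9820 CPM at 1 h, and 8550 and 8612 CPM at 3 h.

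Ube2c (ENSMUSG00000001403, chromosome 2, 164769898 to 164778822), the ubiquitin-conjugating enzyme that works with the anaphase-promoting complex, had the smallest p of the list and of all tested genes. It stood at 138 and 129 CPM at 1 h and 76.2 and 71 CPM at 3 h, 1.81-fold lower (log2 -0.86, SE 0.0601, adjusted p = 8.72e-12). The early G1 libraries were the higher ones and lay above the mitotic level of 54 and 51.2 CPM as well. Plk1 (ENSMUSG00000030867, chromosome 7, 122159439 to 122169873), a kinase needed for spindle assembly and mitotic exit, stood at 136 and 129.9 CPM and then 83.2 and 82.2 CPM, 1.6-fold lower (log2 -0.68, SE 0.0575, adjusted p = 4.54e-10). Its mitotic level was 164 and 155 CPM, so that early G1 lay between the mitotic and late G1 libraries. Arl6ip1, a gene of the endoplasmic reticulum membrane, stood at 367 and 359.6 and then 212 and 227 CPM (adjusted p = 1.41e-11). Nusap1, a microtubule-binding spindle protein gene, stood at 78.9 and 81.4 and then 45.8 and 47.5 CPM (adjusted p = 4.54e-10). For all 4 genes the stages did not overlap, which the rule for the largest falls required of Ube2c and Nusap1. Cdc25b, a phosphatase that activates mitotic cyclin-dependent kinase, fell 1.81-fold, and H2afx, a histone variant gene outside the list, 1.73-fold. Ccnb1, the mitotic cyclin B1 gene, fell less, from 114 ± 1.28 to 98.1 ± 5.17 CPM (mean ± SD, n = 2, log2 -0.22, adjusted p = 0.0122). It was not called by DESeq2 (adjusted p = 0.0608) or without late G1 replicate 1 (edgeR adjusted p = 0.248).

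Promoter sequences are shown for Ube2c and Nectin4, the genes with the smallest p among the 20 largest falls and the 20 largest rises, for Plk1, and for E2f7, the G1 to S gene with the smallest p among those that rose. They are the bases before the gene start in RefSeq (GRCm38.p6), 5′ to 3′ on the gene's strand, with bases inside the GENCODE gene left out. Capitals mark matches to 11 motifs searched on both strands. The CCAAT box was searched by its letters and the CHR element as TTTGAA. E2F sites were searched in the forms TTTCCCGC, TTTGGCGC or TTTCGCGC, and the cyclic AMP response element as TGACGTCA. The TATA box was searched as TATAAA. The AP1 site was searched as TGACTCA, and an E-box meant the letters CACGTG. Sites of TCF factors were searched as CTTTGAA, which contains a CHR, and with a final T in place of the last A. Sites of ETS factors were searched as CCGGAAG, and NRF1 and CArG were the remaining motifs. The positions are chr2:164769679-164769897 for Ube2c, chr7:122159185-122159434 for Plk1, chr1:171369923-171370098 for Nectin4 and chr10:110745189-110745438 for E2f7, each on the plus strand.
Ube2c: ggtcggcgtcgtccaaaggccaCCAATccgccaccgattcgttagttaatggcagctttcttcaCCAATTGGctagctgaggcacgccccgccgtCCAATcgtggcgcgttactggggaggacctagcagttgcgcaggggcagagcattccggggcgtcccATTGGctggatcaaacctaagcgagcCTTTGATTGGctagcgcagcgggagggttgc
Plk1: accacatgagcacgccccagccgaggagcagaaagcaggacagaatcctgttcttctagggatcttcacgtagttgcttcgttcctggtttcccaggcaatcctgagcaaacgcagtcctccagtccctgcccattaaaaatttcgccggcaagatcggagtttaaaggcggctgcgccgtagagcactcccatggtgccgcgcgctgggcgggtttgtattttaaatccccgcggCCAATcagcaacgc
Nectin4: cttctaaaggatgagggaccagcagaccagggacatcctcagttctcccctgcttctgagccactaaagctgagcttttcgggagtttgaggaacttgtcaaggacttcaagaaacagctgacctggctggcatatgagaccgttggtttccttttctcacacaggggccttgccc
E2f7: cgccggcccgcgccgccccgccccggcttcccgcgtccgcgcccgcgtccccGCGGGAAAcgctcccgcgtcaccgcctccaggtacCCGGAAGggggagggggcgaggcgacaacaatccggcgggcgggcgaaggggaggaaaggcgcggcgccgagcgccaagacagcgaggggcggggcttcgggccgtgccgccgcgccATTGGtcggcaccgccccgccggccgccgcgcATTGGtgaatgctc

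The Ube2c promoter held 6 matches to CCAAT or its complement and 1 to TCF, and a CHR match lay 29 to 24 bases before the RefSeq start, in bases not printed. Plk1 held 1 CCAAT, 14 to 10 bases before the start, E2f7 held 1 E2F match, 2 CCAAT and 1 ETS, and Nectin4 held none of them. Over the G2 and M list, 80.0% of the 50 genes with an entry had a CCAAT and 36.0% a CHR in the 250 bases before the start. The shares were 34.5% and 16.3% over all 27025 promoters and 36.7% and 10.7% over the 11574 tested genes with an entry. Among the 26 listed genes called lower they were 76.9% and 30.8%. Over all genes called lower the shares were 36.0% and 11.3%, near those of all tested genes. In the G1 to S list 27.3% of 44 promoters held an E2F match, against 2.93% of the tested genes. A CCAAT was as common there, in 70.45% of the 44, while 13.6% held a CHR. Among the 10 promoters of that list whose genes were called higher, 80.0% held a CCAAT. Matches are a description of these letters and show no binding.

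Neighbouring lists of mitotic genes held fewer calls. Of 34 genes of the kinetochore and spindle checkpoint, 5 (14.7%) were called lower and 0 higher (median log2 -0.07). Over all tested genes the shares were 4.94% and 3.5%. The kinetochore count lower was 3 by DESeq2. Hjurp, the chaperone of the centromeric histone, stood at 294 and 308 and then 253 and 256 CPM (adjusted p = 0.00199). Among 24 genes of cohesin, condensin and CTCF, 4 (16.7%) were called lower and 1 (4.17%) higher. Smc4, a condensin subunit gene, fell from 194 and 199 to 145 and 148 CPM (adjusted p = 1.15e-06), while the other 3 falls each lost their calls in at least 1 fit without 1 library. The count lower was 1 without late G1 replicate 1, and 2 without late G1 replicate 2 or early G1 replicate 2.

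Among genes that act from G1 into S phase most of those that changed rose, by small amounts. Of 56 listed genes, all tested, 15 (26.8%) were called higher and 1 (1.79%) lower, against 3.5% and 4.94% of all tested genes. The median log2 change was 0.08. Both late G1 libraries lay above both early G1 libraries for 32 of the 56, against 25.3% of all tested genes. The count of 15 was 8 by DESeq2, 7 without late G1 replicate 1 and 5 without late G1 replicate 2. Ccne1 (ENSMUSG00000002068, chromosome 7, 38097984 to 38107534), the cyclin E gene that drives entry into S phase, stood at 297 and 289.9 CPM at 1 h and 347 and 356 CPM at 3 h, 1.2-fold higher (log2 0.26, SE 0.0513, adjusted p = 8.12e-04). Ccne2, its paralogue, stood at 39.3 and 39.2 and then 48.7 and 51.6 CPM, 1.28-fold higher (adjusted p = 0.00125), and its mitotic libraries lay lower, at 11.4 and 10.3 CPM. E2f7, an E2F repressor that is itself an E2F target, rose from 45.2 and 49.3 to 64.6 and 59.7 CPM (log2 0.39, adjusted p = 2.58e-04). None of the 3 overlapped between stages. Orc6, a subunit of the origin recognition complex, stood at 134 and 130.1 and then 155 and 162 CPM (adjusted p = 0.00184, and 0.0776 without late G1 replicate 2). The 1 listed gene that fell was Ticrr, a factor for origin firing, from 295 and 332 to 256 and 243 CPM (log2 -0.33, adjusted p = 1.29e-04).

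Regulators of G1 itself changed in both directions. Of 27 genes, 5 (18.5%) were called higher and 3 (11.1%) lower, against 3.5% and 4.94% of all tested genes. DESeq2 called 3 and 1. The count higher was 3 without late G1 replicate 2, and the count lower was 5 without early G1 replicate 2. Fzr1, which encodes Cdh1, the G1 activator of the anaphase-promoting complex, fell from 100.03 and 97.8 to 71.3 and 69.3 CPM (log2 -0.49, adjusted p = 5.99e-07). Cdkn1a, the inhibitor p21, rose from 153 and 139 to 189 and 184 CPM (log2 0.35, adjusted p = 5.17e-05), and Rbl2, the pocket protein p130, from 13 and 15.2 to 19.96 and 20.1 CPM (adjusted p = 0.00133). Ccnd1, the D-type cyclin gene, stood at 161 and 154 and then 139 and 142 CPM and was not called (log2 -0.16, adjusted p = 0.0548), although it passed without early G1 replicate 2 (0.0202). Myc, a growth factor response gene, was not called either, at 43.8 and 41.6 and 40.3 and 36.5 CPM (adjusted p = 0.238). Histone genes of S phase, most of whose transcripts have no poly(A) tail and are missed by this kit, had 17 of 64 tested. Of these, 3 (17.6%) were called higher and 0 lower, with a median log2 change of 0.55. Hist1h2bc stood at 16.4 and 15 and then 26.2 and 26.4 CPM, and Hist1h1c, a linker histone, at 25.3 and 20.7 and then 33.5 and 38.1 CPM. Near-identical histone copies make single-gene values uncertain.

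Targets of p53 had the largest share of members called higher of the 35 lists examined. Of 31 targets, 14 (45.2%) were called higher and 3 (9.68%) lower, against 3.5% and 4.94% of all tested genes. The median log2 change was 0.18. DESeq2 called 10 and 1, and leaving out 1 library gave between 11 and 18 higher and between 1 and 4 lower. Mdm2 (ENSMUSG00000020184, chromosome 10, 117688875 to 117710758), the ubiquitin ligase that degrades p53, stood at 345 and 354 CPM at 1 h and 513 and 515 CPM at 3 h, 1.47-fold higher (log2 0.56, SE 0.0503, adjusted p = 1.47e-09). Its mitotic and asynchronous levels lay below, at 277 and 251 and 176 and 134 CPM. Plk2 (ENSMUSG00000021701, chromosome 13, 110395046 to 110400844), a stress-responsive polo kinase, stood at 177 and 181 and then 268 and 270.04 CPM, 1.5-fold higher (adjusted p = 1.22e-09). Btg2 (ENSMUSG00000020423, chromosome 1, 134075170 to 134079120), an antiproliferative gene, stood at 132 and 132 and then 196 and 201 CPM, 1.5-fold higher (adjusted p = 1.56e-09). Ddit4l, an inhibitor of mTOR signalling, rose 1.73-fold, from 27.6 and 27.5 to 47 and 48.5 CPM (adjusted p = 4.60e-09). In each of the 4 genes both late G1 libraries lay above both early G1 libraries, which the rule for the largest rises required of Ddit4l. Plk3, another polo kinase of the list, fell from 47.3 and 54.2 to 35.6 and 35 CPM (log2 -0.53, adjusted p = 1.34e-05), and the other 2 falls, Ephx1 and Gadd45a, lost their calls without late G1 replicate 2 (adjusted p = 0.118 and 0.0706). In the family of BCL2, regulators of cell death, 2 of 17 (11.8%) were called higher and 1 (5.88%) lower. By DESeq2 these counts were 1 and 0. Bcl2l11, the killer protein BIM, rose from 37.3 and 37 to 52.5 and 49 CPM (adjusted p = 6.82e-05).

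**Figure D3:**
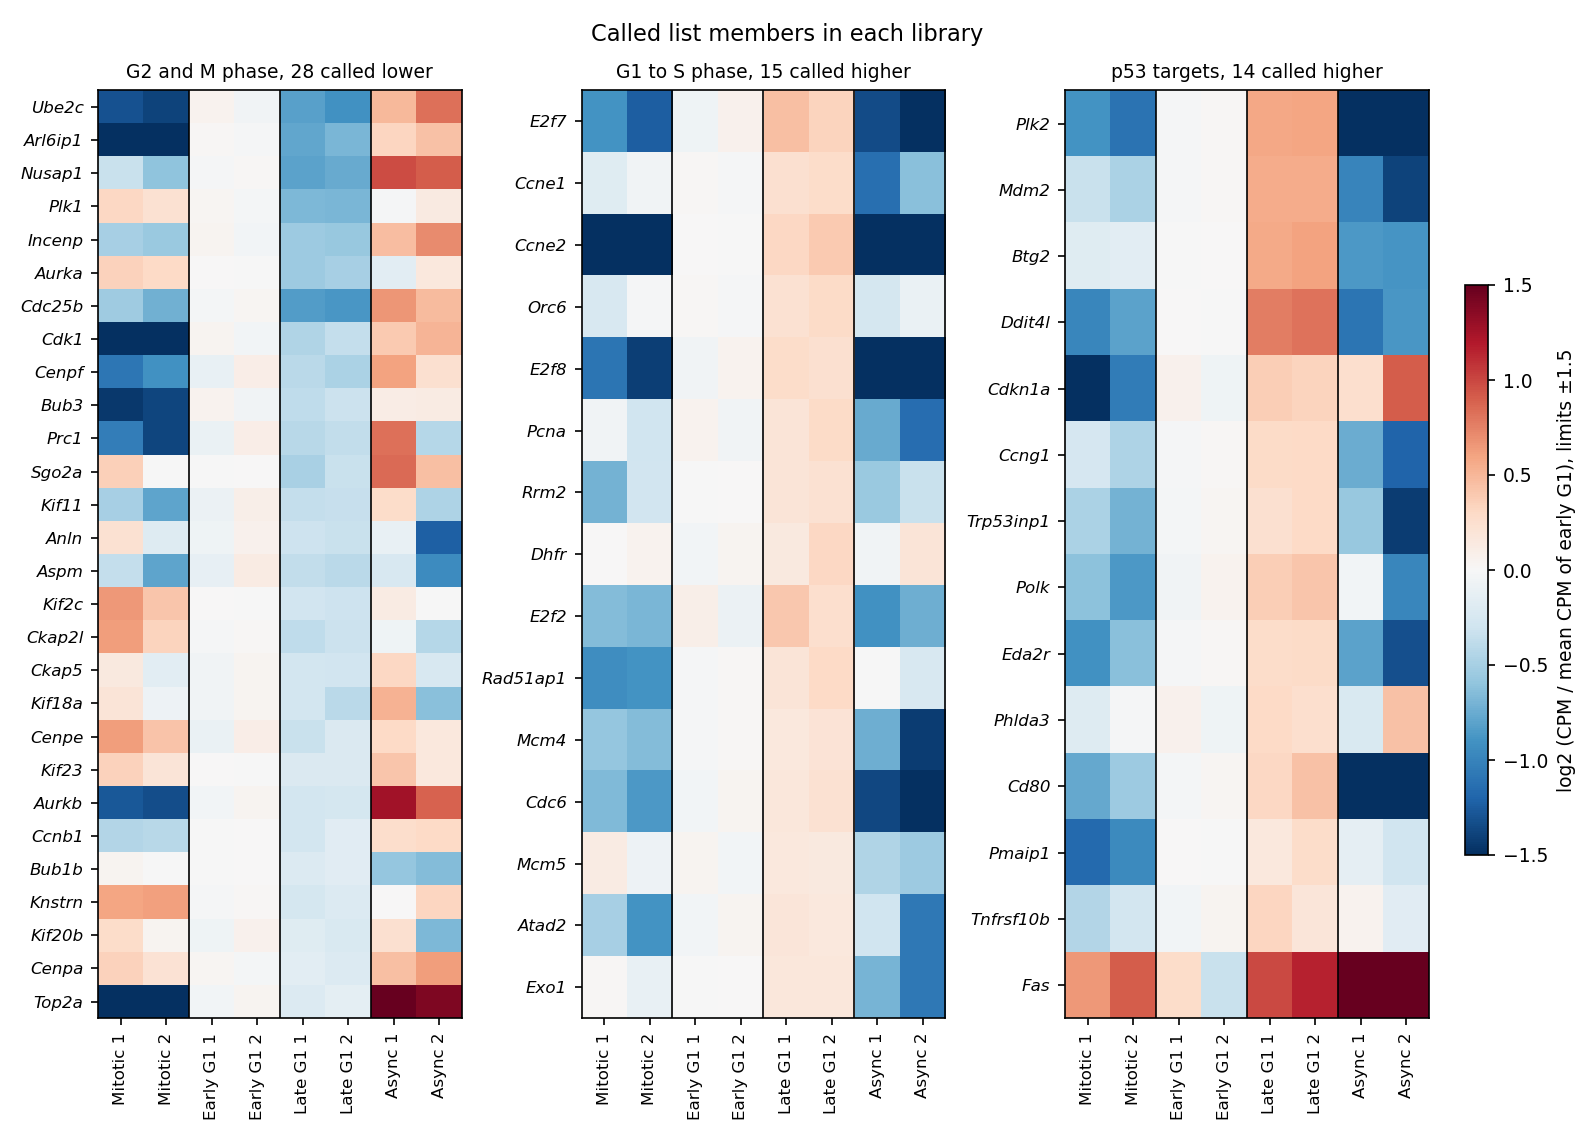
Log2 ratio of CPM in each of the 8 libraries (columns) to the mean of early G1, limits ±1.5, for the 28 G2 and M genes called lower, the 15 G1 to S genes called higher and the 14 p53 targets called higher (rows, smallest p at the top of each panel). Both late G1 columns share a direction in every row because the rows were chosen by their calls.

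In the naive pluripotent network the genes that changed fell, and Pou5f1 was not among them. Of 31 core and naive genes, 11 (35.5%) were called lower and 0 higher, against 4.94% and 3.5% of all tested genes. The median log2 change was -0.11. Both late G1 libraries lay below both early G1 ones for 19 of 31, against 26.1% of all tested genes. DESeq2 called 9 lower, and the count was 7 without late G1 replicate 2. Klf2 (ENSMUSG00000055148, chromosome 8, 72319033 to 72321656), a Krüppel-like factor of the naive state, stood at 131 and 121 CPM at 1 h and 88.4 and 76.7 CPM at 3 h, 1.53-fold lower (log2 -0.61, SE 0.064, adjusted p = 4.90e-08). It was higher in mitotic and asynchronous cells, at 242 and 228 and at 292 and 315 CPM. Zfp57, a zinc finger protein that protects imprints, fell from 483 and 486 to 373 and 381 CPM (adjusted p = 5.33e-06), and Sall4 and Sall1, spalt-like factors, from 369 ± 5.5 to 296 ± 13.1 and from 142 ± 5.6 to 112 ± 1.31 CPM. Pou5f1 stood at 1968 and 1776 CPM at 1 h and 1864 and 1905 CPM at 3 h, and the stages overlapped (log2 0.01, adjusted p = 0.938). Nanog stood at 831 and 837 and then 767 and 784 CPM and was not called (log2 -0.11, adjusted p = 0.19). Sox2, Esrrb and Klf4 were called, with log2 changes of -0.24, -0.25 and -0.20 (adjusted p = 0.00409, 0.00116 and 0.0139), but none of the 3 without late G1 replicate 2 (adjusted p = 0.195, 0.0887 and 0.368).

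Formative and primed genes mark the next step of pluripotency. Of 19 tested, 4 (21.1%) were called lower and 0 higher, against 4.94% and 3.5% of all tested genes. DESeq2 called 2 lower. Foxd3 (ENSMUSG00000067261, chromosome 4, 99656299 to 99658622), a forkhead factor, stood at 30.05 and 28.2 CPM at 1 h and 18.8 and 16 CPM at 3 h, 1.67-fold lower (log2 -0.74, SE 0.0942, adjusted p = 1.30e-06). The 2 stages did not overlap, and both lay above the mitotic level of 7.35 and 6.83 CPM. Otx2 and Zic2 had log2 changes of -0.39 and -0.28, each called in the full set but not by DESeq2 (adjusted p = 0.129 and 0.0565), and Otx2 not without either replicate 1 library (edgeR adjusted p = 0.0845 and 0.191).

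LIF signals through STAT3 to support the naive state. Of 20 target genes, 7 were called lower and 1 higher, 4 and 1 by DESeq2 and 3 and 0 without late G1 replicate 2. Pim3 and Pim1, kinases induced by STAT3, fell from 170.4 and 156 to 120.3 and 118 and from 106 and 106 to 82.8 and 75 CPM (adjusted p = 1.22e-06 and 7.94e-06). Gbx2, a homeobox gene of both this and the naive list, stood at 15.5 and 13.6 and then 9.66 and 9.09 CPM. Socs3, the feedback inhibitor of the pathway, had a log2 change of -0.26 and lost its call without late G1 replicate 2 (adjusted p = 0.191). In the KLF and SP family of 20 factors, 4 were called lower and 2 higher, against 4.94% and 3.5% of all tested genes. DESeq2 called 2 lower and 1 higher, and the count higher was 1 without late G1 replicate 1 or 2. Sp4 rose from 16.5 and 15.6 to 23.3 and 22 CPM (adjusted p = 6.66e-04), and Klf10 fell from 86.3 and 90.3 to 72.5 and 73 CPM.

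Other signalling lists held few called genes each, but these lists are short. The share lower was above the 4.94% of all tested genes for the Nodal, BMP, Wnt and ERK lists. For the Notch list it was 4.76%. The share higher was above the 3.5% of all tested genes for the Wnt, Notch and ERK lists, and 0% for the Nodal and BMP lists. In the Nodal pathway 2 of 19 genes were called lower: Lefty1, the secreted inhibitor of Nodal, from 20.3 and 19 to 12.5 and 12.3 CPM (log2 -0.66, adjusted p = 3.72e-05), and Inhba, the activin A subunit, from 0.998 and 1.13 to 0.092 and 0.237 CPM. Inhba stood at 6.38 and 4.14 CPM in asynchronous and 0.085 and 0.131 CPM in mitotic libraries, an order shared with the feeder markers that fell, and had no DESeq2 adjusted p. The part of feeder RNA in its fall was not tested. Nodal itself stood at 189 and 181 and then 190.4 and 191 CPM, and was not called (log2 0.04, adjusted p = 0.724). In the BMP response 3 of 21 were called lower, 1 of them by DESeq2 (8 of the 21 had no DESeq2 adjusted p) and 1 without early G1 replicate 1. Id3, a dominant-negative helix-loop-helix gene and BMP target, fell from 49.6 and 48.5 to 33 and 35.7 CPM (log2 -0.51, adjusted p = 1.34e-05). Wnt targets gave 3 higher and 2 lower of 20, and 0 without late G1 replicate 1. DESeq2 gave an adjusted p for 10 of the 20, which include 3 of the 5 called genes, and called 0 of those 10. Genes of the Notch pathway gave 2 higher and 1 lower of 21, with 1 and 0 by DESeq2 (7 without an adjusted p) and 0 and 2 without late G1 replicate 1. Jag2, a Notch ligand, stood at 35.2 and 35.5 and then 45.6 and 43.6 CPM (adjusted p = 0.0031, and 0.0649 without late G1 replicate 1). In all cultures a GSK3 inhibitor, which activates Wnt signalling, and a MEK inhibitor, which blocks ERK signalling, were present. Among 18 ERK feedback and ETS target genes 4 were called lower and 1 higher, and DESeq2 called 1 and 1. Epha2, a receptor kinase gene, had a log2 change of -0.25 (adjusted p = 0.00217, and 0.193 without late G1 replicate 2, where the count lower was 2).

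Immediate early genes, which respond to stimuli within minutes, split into risers and fallers. Of 31 genes, 6 (19.4%) were called higher and 5 (16.1%) lower, against 3.5% and 4.94% of all tested genes. DESeq2 called 4 and 2. Atf3 (ENSMUSG00000026628, chromosome 1, 191170296 to 191218039), a stress-induced bZIP factor, stood at 10.9 and 11.5 CPM at 1 h and 18.6 and 22.7 CPM at 3 h, 1.84-fold higher (log2 0.88, SE 0.109, adjusted p = 8.63e-07). Fos (ENSMUSG00000021250, chromosome 12, 85473890 to 85477273), a subunit of AP1, stood at 9.98 and 9.82 and then 14.3 and 14.6 CPM (log2 0.55, adjusted p = 0.00133), and Fosl1, its relative, at 5.09 and 3.97 and then 7.87 and 7.34 CPM. Egr1, a zinc finger factor, went the other way, from 13 and 11.6 to 8.56 and 8.38 CPM (log2 -0.53, adjusted p = 0.00397, DESeq2 adjusted p = 0.0588). Its mitotic libraries stood at 1.1 and 0.827 CPM. Ccn2, a matricellular gene driven by YAP, fell from 120.1 and 122 to 95.9 and 95.2 CPM (adjusted p = 9.16e-05). None of these 5 genes overlapped between stages, which the rule for the largest rises required of Atf3 and Fosl1.

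The list of actin genes and of SRF and YAP targets also changed in both directions. Of 30 genes, 6 (20%) were called higher and 4 (13.3%) lower, against 3.5% and 4.94% of all tested genes. DESeq2 called 2 and 3. The risers were actin cytoskeleton genes and Srf. Actg1, cytoplasmic gamma actin, rose from 218 and 213 to 262 and 263 CPM (log2 0.29, adjusted p = 3.22e-04), and Actb, beta actin, had a log2 change of 0.18 (adjusted p = 0.013, and 0.175 and 0.234 without late G1 replicate 1 or 2). The count higher was 2 and 1 without late G1 replicates 1 and 2. The members that fell included the YAP targets Ajuba, from 283 and 276 to 228 and 217 CPM, and Ankrd1, from 2.61 and 2.73 to 0.966 and 0.237 CPM. Like the feeder markers that fell, Ankrd1 was higher in asynchronous libraries (11 and 13.8 CPM) than in mitotic ones (0.722 and 0.566 CPM), and it had no DESeq2 adjusted p. The part of feeder RNA in its fall was not tested.

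Tubulin genes, whose transcripts are degraded when free tubulin is abundant, changed in both directions. Of 17 tested, 5 (29.4%) were called lower and 3 (17.6%) higher, against 4.94% and 3.5% of all tested genes. DESeq2 called 4 lower and 3 higher. Tubb5 (ENSMUSG00000001525, chromosome 17, 35833921 to 35838306), the main beta tubulin of dividing cells, stood at 1486 and 1437 CPM at 1 h and 1057 and 1056 CPM at 3 h, 1.38-fold lower (log2 -0.47, SE 0.0478, adjusted p = 1.71e-08). It had stood at 539 and 543 CPM in mitotic and 3387 and 4078 CPM in asynchronous cells, so late G1 lay between early G1 and the arrested cells. Tuba1c and Tuba1b, alpha tubulin genes, fell from 77.4 and 79.5 to 53.2 and 43.7 and from 207 and 173 to 143 and 154 CPM. Tuba1a and Tuba3a rose, from 126 and 106 to 144 and 148 CPM and from 56.5 and 51.4 to 67.1 and 72.1 CPM (adjusted p = 0.00136 and 3.93e-04). Tubulin paralogues share sequence, and the authors' counting may have split reads between them.

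Lists of metabolism held more falls than rises. The share lower was 26.7% for cholesterol genes and 27.0% for glycolysis and hypoxia genes, against 4.94% of all tested genes. Their shares higher were 0% and 2.7%, against 3.5%. Of 30 genes of cholesterol synthesis and uptake, 8 were called lower and 0 higher (median log2 -0.13), with 4 by DESeq2, 5 without late G1 replicate 1 and 3 without late G1 replicate 2. Insig1 (ENSMUSG00000045294, chromosome 5, 28071363 to 28078662), which retains the SREBP pathway in the endoplasmic reticulum, stood at 118 and 117 CPM at 1 h and 93.4 and 96.8 CPM at 3 h, 1.24-fold lower (log2 -0.31, SE 0.057, adjusted p = 3.93e-04). The 2 stages did not overlap. Hmgcs1, a synthase at the start of the pathway, had a log2 change of -0.24 (adjusted p = 0.00202). Of 37 gene IDs of glycolysis and hypoxia, 10 were called lower and 1 higher (median log2 -0.13), with 6 lower by DESeq2 and 5 without late G1 replicate 2. Pfkp, a phosphofructokinase, fell from 239.8 and 250.03 to 183 and 185 CPM (adjusted p = 1.54e-06), and Egln3, a prolyl hydroxylase induced by hypoxia, from 37.6 and 36 to 27.2 and 26.4 CPM. Ndrg1, a hypoxia-induced gene, fell from 49.6 and 48.3 to 33.9 and 35.7 CPM, and the asynchronous libraries lay higher for all 3, at 756 and 739, 109 and 143 and 292 and 328 CPM. Ddit4, an mTOR inhibitor, was the member that rose, with a log2 change of 0.28, and lost its call without early G1 replicate 2 (adjusted p = 0.142).

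The adhesion and matrix list held falls in genes that are not among the feeder markers. Its share lower was 27.3% and its share higher 2.27%, against 4.94% and 3.5% of all tested genes. Of its 44 genes, 12 were called lower and 1 higher (median log2 -0.08), with 7 lower by DESeq2 and 4 without late G1 replicate 2. Lama1, a laminin chain of early basement membranes, fell from 65.2 and 66.4 to 53.8 and 51.6 CPM (adjusted p = 0.00143). Its level in asynchronous libraries was 42.6 and 50.5 CPM, below both G1 stages. Of the 12 genes called lower, 7 had an asynchronous mean above their early G1 mean. So had the 8 feeder markers called lower, but also 22 of 28 G2 and M genes and 10 of 10 glycolysis and hypoxia genes called lower. In the core and naive list it held for 2 of 11. One of the 7 adhesion and matrix genes was Col4a2, a basement membrane collagen. It stood at 114 and 141 CPM in asynchronous libraries and 62.2 and 60.1 CPM in early G1. It had a log2 change of -0.40 and lost its call without late G1 replicate 2 (adjusted p = 0.0583).

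The remaining lists differed in their shares of calls, set against 3.5% higher and 4.94% lower over all tested genes. The share higher was 11.4% for ribosomal proteins, 14.3% for clock genes and 0% for splicing factors and macrophage markers. The share lower was 10.3% for chromatin genes, 4% for splicing factors and 1.27% for ribosomal proteins. Chromatin genes of acetylation, Polycomb and DNA methylation gave 2 higher and 4 lower of 39, and DESeq2 called 0 and 2, as did the fit without late G1 replicate 2. The 2 of DESeq2 were Jarid2, a subunit of Polycomb repressive complex 2, from 362 and 389.6 to 289 and 293 CPM (adjusted p = 8.70e-06), and Dnmt1, the maintenance DNA methyltransferase, from 323 and 349 to 277 and 266 CPM (adjusted p = 1.70e-04). Ribosomal protein genes gave 9 higher and 1 lower of 79. The 1 lower was Rps7, from 82.1 ± 8.33 to 45.3 ± 6.66 CPM (mean ± SD, n = 2), and Rpl7a rose from 195 and 188 to 227 and 247 CPM. Ribosomal protein genes have many processed pseudogenes, and how reads shared with them were counted was not tested. Both counts of ribosomal proteins depended on the fit. The count higher was 6 by DESeq2, 5 without late G1 replicate 2, and 17 and 14 without early G1 replicates 1 and 2. The count lower was 3 and 9 without early G1 replicates 1 and 2, and 4 and 2 without late G1 replicates 1 and 2. Ribosome biogenesis gave 3 higher and 1 lower of 47, heat shock 2 and 1 of 23, the integrated stress response 2 and 1 of 30 and SR splicing factors with CLK kinases 0 and 1 of 25. The count higher was 0 for ribosome biogenesis without late G1 replicate 2 and 0 for heat shock without early G1 replicate 2. Of 21 clock genes 3 were called higher (1 without late G1 replicate 1) and 1 lower, and Tef, a clock output factor, rose from 61 and 64.8 to 86.4 and 78.9 CPM (adjusted p = 8.50e-05). Targets of the aryl hydrocarbon receptor gave 1 higher and 1 lower of 9, and Cyp1a1, its main target, rose from 16.8 and 16.1 to 23 and 21.2 CPM (adjusted p = 0.0031) from 5.61 and 9.36 CPM in mitotic and 0.161 and 0.102 CPM in asynchronous cells. Of 23 genes of the two-cell-like state 10 were tested and 2 called higher, Ddit4l and Zfp750. Macrophage markers gave 0 edgeR calls among 9 tested of 18, and DESeq2 gave 3 of them an adjusted p and called 0. Of the 9, 8 had a positive change (median log2 0.24). The defining markers Lyz2, Adgre1 and C1qa stood at no more than 0.761 CPM in any G1 library, and Csf1r at no more than 0.951 CPM. Cd68, also a listed marker, stood at 44 and 39.7 CPM at 1 h and 44.1 and 45.4 CPM at 3 h.

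**Figure D4:**
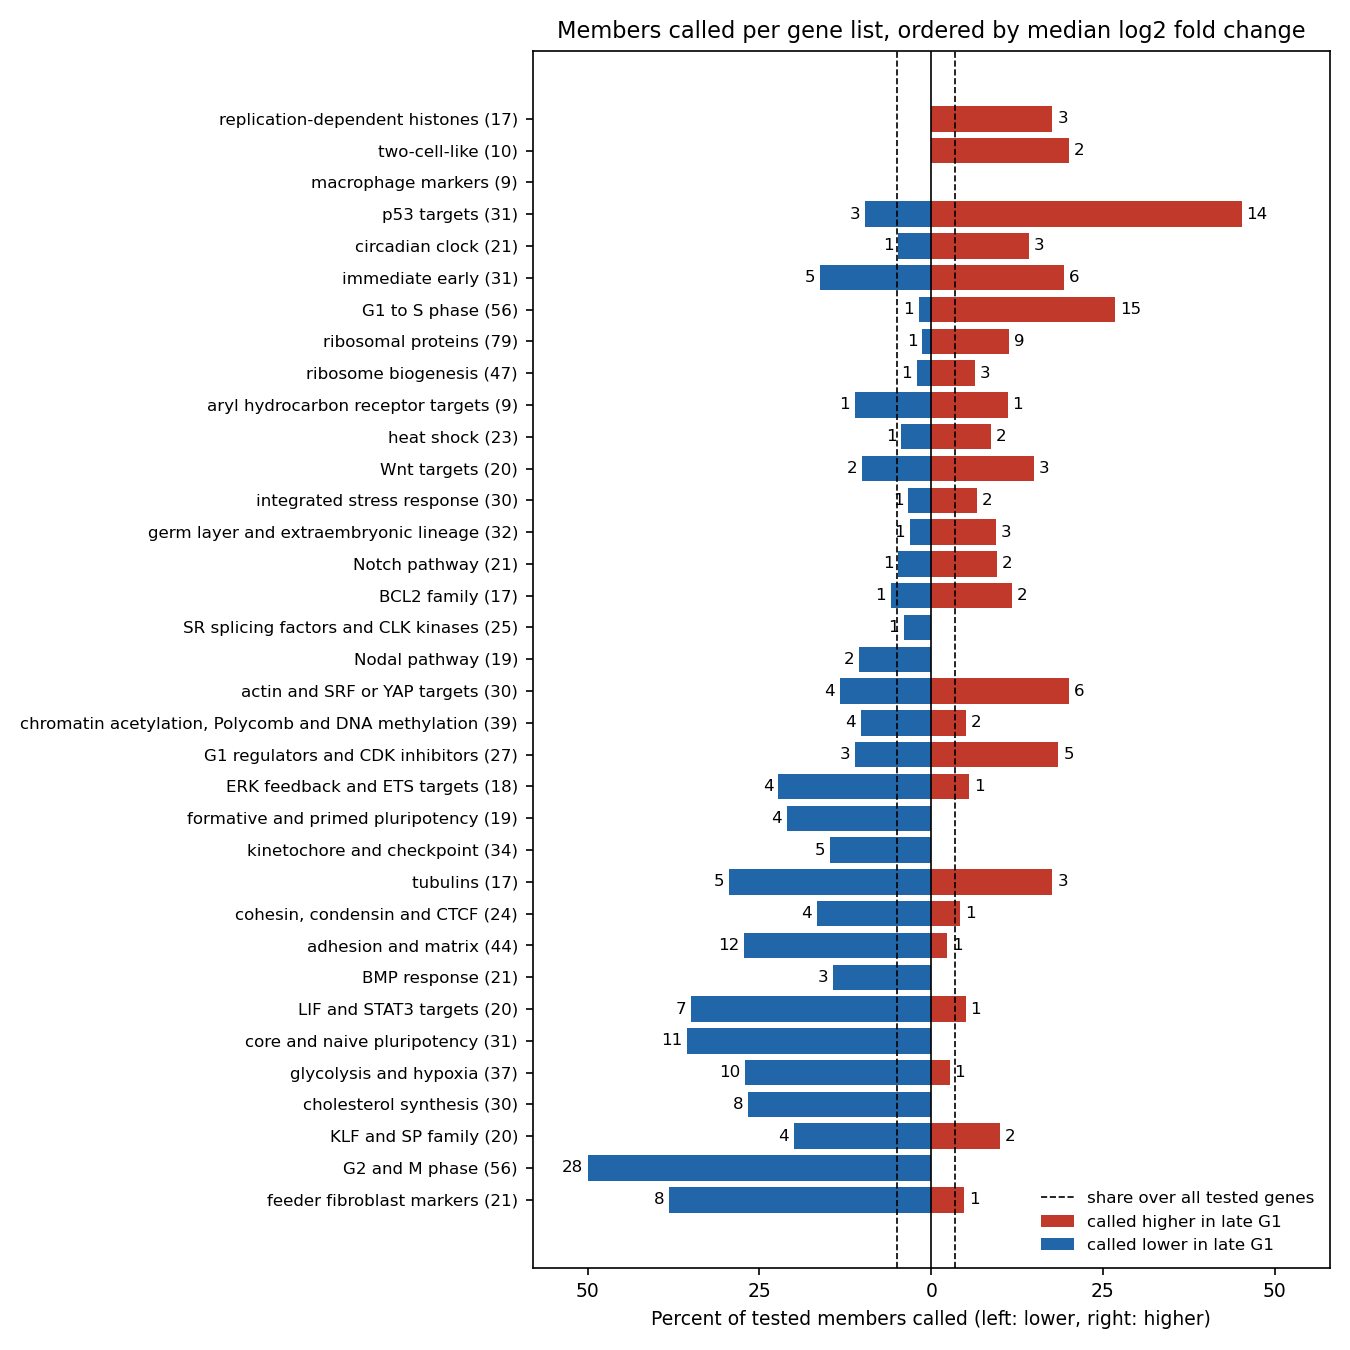
Percent of tested members called higher (right, red) and lower (left, blue) in late G1 for 35 gene lists, ordered by median log2 fold change, with tested members in parentheses and counts at the bars. Dashed lines mark 3.5% higher and 4.94% lower over all tested genes. The G2 and M list, with 28 of 56 lower, reaches furthest left, and the p53 list, at 45.2% higher, furthest right.

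Among long genes a larger share was called lower in late G1. Among 13972 tested protein-coding genes, 3.75% were called higher and 5.62% lower. Below 100 kb the share lower was between 4.19% and 4.56% in each of 3 length bins. It was 9.06% between 100 and 200 kb and 22.9% above 200 kb, where 147 of 642 genes were called lower and 5 higher. The median log2 change above 200 kb was -0.22, with quartiles of -0.42 and -0.03, and 78.7% of these genes had a negative change. Both late G1 libraries lay below both early G1 libraries for 365 of the 642 and above them for 49. Over all tested genes 26.1% lay below and 25.3% above in this way. Genes over 200 kb made up 18.7% of the coding genes called lower and 0.954% of those called higher. The share lower also differed with the length of the exons, from 3.29% in the fifth of coding genes with the shortest exons to 9.84% in the fifth with the longest. Above 200 kb it was 12.3% of 65 genes with exons below the median of 4348 bases and 24.1% of 577 with longer ones. Among genes with longer exons the share was 4.73% below 10 kb. Genes are not independent replicates, and no test was run on this pattern.

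**Figure D5:**
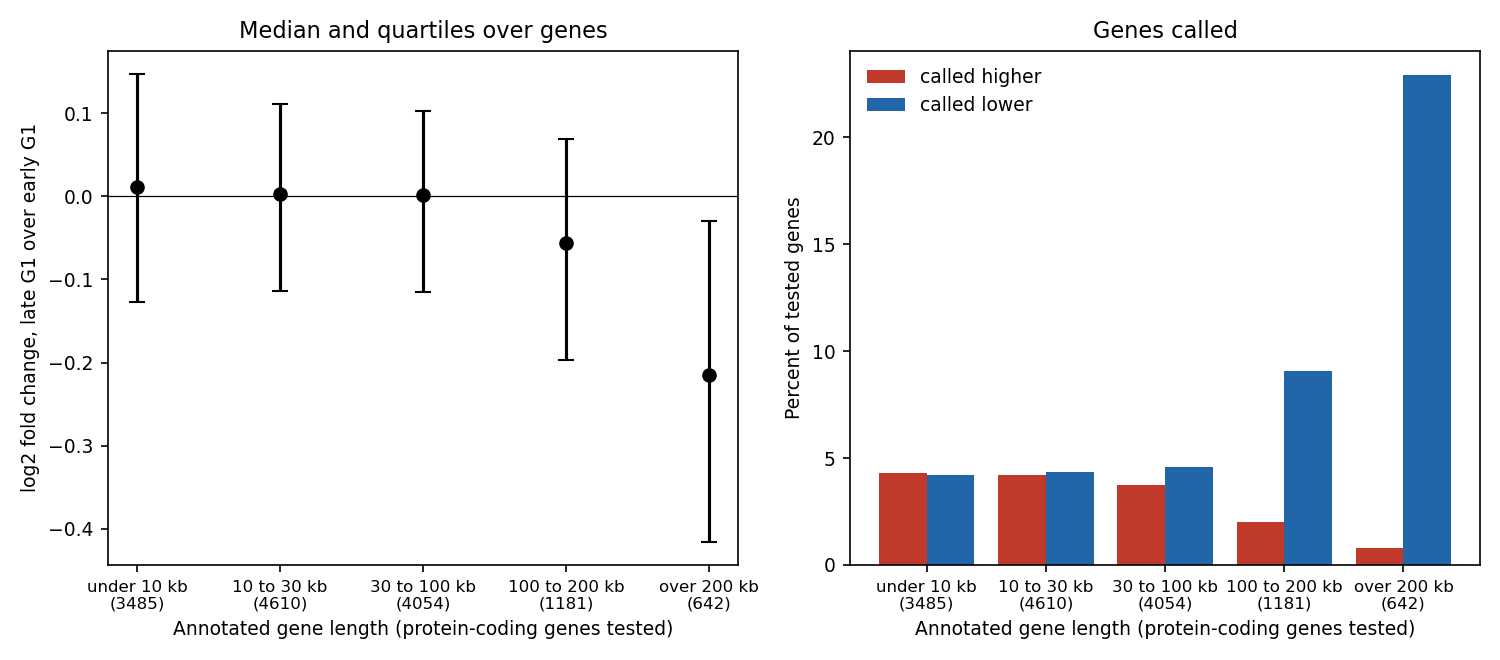
Left, median and quartiles (bars) over genes of the log2 fold change of late over early G1 by annotated gene length. Right, percent of tested protein-coding genes called higher (red) and lower (blue), with the number tested under each bin. The share lower is 22.9% above 200 kb and 4.19% below 10 kb.

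The 2 early G1 libraries were not alike in this respect. The median deviation of genes over 200 kb from the mean of the 4 libraries was 0.06 and 0.15 (log2) in early G1 replicates 1 and 2 and -0.09 and -0.11 in late G1. Without early G1 replicate 2 the median change was -0.16 and 14.7% were called lower, and without late G1 replicate 2 it was -0.22 and 14%. DESeq2 called 12.3% lower and 0.156% higher. The median level of these genes, as log2(CPM + 0.1), was 3.16 and 3.20 at 1 h and 2.87 and 2.84 at 3 h, beside 3.23 and 3.23 in mitotic and 3.43 and 2.99 in asynchronous libraries. Among genes over 200 kb whose mean log2 CPM was 5 or more, 44.4% of 126 were called lower, and 17.6% of the 516 below that level. Their median log2 changes were -0.18 and -0.22, so the change itself was not larger at the higher level. Among genes under 10 kb the shares lower at the same levels were 6.46% and 2.91%. The share of long genes called lower did not increase further above 300 kb. In bins chosen after the values had been seen, 27.0% of 318 genes of 200 to 300 kb, 21.1% of 209 of 300 to 500 kb and 14.8% of 115 over 500 kb were called lower.

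Gli2 (ENSMUSG00000048402, chromosome 1, 118834132 to 119053619), a transcription factor of Hedgehog signalling with a gene of 219488 bases, stood at 37.5 and 44.7 CPM at 1 h and 25.9 and 21.4 CPM at 3 h, 1.74-fold lower (log2 -0.80, SE 0.0945, adjusted p = 1.86e-06). Fndc3b (ENSMUSG00000039286, chromosome 3, 27416162 to 27711307), a fibronectin domain protein gene of 295146 bases, stood at 23.4 and 25.1 and then 14.3 and 13.3 CPM, 1.76-fold lower (adjusted p = 4.55e-07). Apbb2, an adaptor that binds the amyloid precursor protein, stood at 10.7 and 11.6 and then 5.34 and 6.72 CPM (adjusted p = 3.57e-05). In all 3 the stages did not overlap, as the rule for the largest falls required. The mitotic libraries lay above late G1, at 61.1 and 67, 37.9 and 40.05 and 19.1 and 18.2 CPM. Zfp407, Fhod3, Chst11 and Glis3, also over 200 kb, had log2 changes of -0.77, -0.86, -0.88 and -0.83.

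Values of 3 noncoding transcripts, chosen after they had been seen, are given here. Malat1 (ENSMUSG00000092341), a long noncoding RNA of nuclear speckles, stood at 171 and 201 CPM at 1 h and 127 and 124 CPM at 3 h (log2 -0.57, adjusted p = 2.05e-07). Neat1 (ENSMUSG00000092274), the scaffold of paraspeckles, stood at 38 and 39.6 and then 24.9 and 24.7 CPM (log2 -0.65, adjusted p = 9.57e-07). Gm42418 (ENSMUSG00000098178), which overlaps ribosomal RNA sequence, fell from 19.9 and 16.2 to 12 and 10.3 CPM (adjusted p = 1.02e-04). The part of RNA quality or of nuclear RNA in the changes of long genes was not tested. By class, antisense genes gave 6 higher and 0 lower of 409, lincRNAs 13 and 14 of 496 and processed pseudogenes 60 and 58 of 1858. Reads of an antisense gene cannot be told apart from those of its partner here, since the strand setting of the counting is not known.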

How the data were processed

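RNA from 8 cultures was sequenced with a stranded poly(A) kit as single reads, per the labels' protocols. The authors deposited raw counts per gene for all 8 libraries, with TopHat2, SAMtools, HTSeq and the build mm10 named in the submitters' processing notes. Which annotation release and which strand setting were used is not given in the sources used here. Gene symbols, positions and lengths came from GENCODE M21 (GRCm38), which matched 54809 of 54838 gene IDs, and promoters from RefSeq (GRCm38.p6).

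Early and late G1 counts were fitted in R 4.3.3 with edgeR 4.0.16 (filterByExpr with a minimum count of 10, TMM, robust quasi-likelihood, adjusted p under 0.05). The 4 libraries leave 2 residual degrees of freedom before the spread is shared across genes. DESeq2 1.42.0, a fit of all 8 libraries, a replicate block, other scaling and filters and leaving out each library were alternatives. The genes named are the 20 largest rises and falls, up to 4 called members per list and direction with the smallest p, and 16 fixed anchors. The rises and falls were taken among called protein-coding or lincRNA genes with a mean log2 CPM of 2 or more. Their stages had to be free of overlap, and clone names and pseudogenes were left out. The comparison and the gene lists were chosen with earlier results of these data known. SDs are of 2 libraries per stage. Totals were 20410621 to 25615244 counts over the 8 libraries. The fit was checked on simulated counts. Some genes that this rule names are not reported here.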

Additional observations from a re-analysis of the deposited data

How the results depend on the processing

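The 619 genes higher, the 874 lower and the 221 list members called became 0, 0 and 0 in the fit of all 8 libraries (724 genes at an unadjusted p under 0.05) and 229, 372 and 128 with DESeq2, for which 5146 genes had no adjusted p. With RLE size factors they were 627, 861 and 219, without a filter 583, 1000 and 236, and with at least 50 counts in 2 libraries 618, 843 and 218. Leaving out 1 library gave 292 to 731 genes higher, 437 to 995 lower and 131 to 243 list members. The median log2 change of genes over 200 kb, -0.215, was -0.210 to -0.214 in the other fits of all 4 G1 libraries and in the fit of all 8, and -0.255 to -0.156 with 1 library left out, the latter without early G1 replicate 2. Pou5f1, at 0.0095, was between -0.065 and 0.084 with 1 library left out, and was reversed without early G1 replicate 2 (-0.065) and late G1 replicate 2 (-0.0075). The replicate block gave 643, 936 and 229, and 1413 of 1493 calls were shared. Whether the replicate numbers pair the samples by clone is not known. Deviations of same-numbered libraries from their group means correlated at 0.0066 over genes. Small differences between clones under count noise could give such a value too, so it cannot exclude pairing. Of 170 named genes called, 94 were called in each of the 9 alternatives other than the fit of all 8 libraries that tested them. With 2 libraries per stage and 3 counts worth at least 0.117 CPM, changes of genes near that level were not detectable.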
